A study of Mus musculus with 6 samples.

Results

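The caveolae genes Cav1, Cav2 and Ptrf were followed by symbol in the raw gene counts of sorted mouse lung cells. All 3 were among the 23337 symbols listed, and all 3 passed the filter on low counts that left 12899 genes for testing. The cells were alveolar type II cells, the surfactant-making progenitors of the alveolus, marked with a Tomato reporter through CreER, a Cre switched on by tamoxifen, which the surfactant protein C (SpC) promoter drives, and sorted by flow cytometry. The mutant group had the genotype SpC-CreER/Dlk1flox/ROSA-Tomato, in which Dlk1, a membrane protein related to the Notch ligands, can be deleted in the cells that express the Cre. The wild-type group had the genotype SpC-CreER/ROSA-Tomato. Both groups therefore carried the Cre and the reporter, both received Pseudomonas aeruginosa as a lung injury, and both were labelled as 10 days after it. The protocols also mention a culture of the cells, and whether the RNA came from cultured cells is not settled. Each group had 3 libraries, numbered 1 to 3. The labels do not say that each library came from its own animal, nor how old the animals were, so the spread between libraries may be partly technical.

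Caveolae are flask-shaped pits of the plasma membrane. Caveolins, which insert into the inner leaflet as a hairpin, form the coat together with cavins, soluble proteins that bind it from the cytoplasm, while EHD2 sits at the neck. In the lung, caveolae are abundant in the flat alveolar type I cells and in endothelial cells and sparse in type II cells, and Cav1 is used as a marker that appears as type II cells become type I cells. Because fibroblasts, smooth muscle, fat and mesothelial cells also carry caveolae, their transcripts were read beside the members.

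The libraries held 22511461 to 30695994 counts. A count of 3, taken as the limit that a zero allows, corresponded to 0.0915 to 0.137 CPM (counts-per-million) after scaling by the trimmed mean of M values (TMM), which is the scale of every level below unless counts are named. The surfactant gene Sftpc averaged 46460 ± 3816 CPM in mutant and 52533 ± 2801 CPM in wild-type libraries (SD, n = 3 each). This type II transcript was thus abundant in all 6, which does not measure the purity of the sort. Dlk1 had at most 2 counts in any library and did not check the genotypes. Mutant 1 stood apart, with 447 tested genes at least 5-fold above each other library. Its sums over fixed marker lists were 214 CPM for 11 fibroblast genes, against 4.13 to 7.90 CPM in the other 5 libraries, and 457 CPM for 10 leukocyte genes, against 5.49 to 25.7 CPM. The largest excess in CPM was in 5 club cell genes, at 8122 CPM in mutant 1 against 492 to 812 CPM. Most fold changes below are therefore also given without mutant 1.

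Cav1, the main structural protein of caveolae, was the member whose level separated the groups. It stood at 35.9, 24.0 and 17.7 CPM in mutants 1, 2 and 3, against 12.2, 13.9 and 8.31 CPM in wild types 1, 2 and 3. Every mutant library lay above every wild-type library, as in 5.23% of all tested genes. Mutant 1 was highest and wild type 3 lowest. The means were 25.9 ± 9.22 CPM in mutant and 11.4 ± 2.84 CPM in wild-type libraries (SD, n = 3 each), a 2.26-fold ratio. The log2 fold change was 1.18 ± 0.29 (SE), with a 95% interval of 0.49 to 1.86. It ranked 45 of 12899 genes by p in edgeR's quasi-likelihood test, with an unadjusted p of 0.00462, and did not pass after Benjamini-Hochberg adjustment over all genes (adjusted p = 0.737). No gene passed in that test in either direction (0% of 12899 genes), and 3.69% of them had an unadjusted p under 0.05 on the higher side.

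DESeq2 placed Cav1 just past the threshold with all libraries (adjusted p = 0.049), where it called 27 of 15018 genes higher, or 0.180%. Without mutant 1 it did not (adjusted p = 0.287), and 9 of 16867 genes, or 0.0534%, were called higher. Without mutant 1 the mean of mutants 2 and 3 was 20.9 CPM, 1.82-fold that of the wild-type libraries. The edgeR log2 fold change was then 0.87, with an interval of 0.34 to 1.40 and an adjusted p of 0.819. Mutants 2 and 3 both lay above every wild-type library, as did 11.1% of tested genes.

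Cav2, which needs caveolin-1 to reach the cell surface and forms mixed oligomers with it, did not separate the groups. It stood at 56.5, 83.1 and 64.9 CPM in mutants 1, 2 and 3, against 46.8, 70.2 and 60.9 CPM in wild types 1, 2 and 3. The groups overlapped, since wild type 2 lay above mutants 1 and 3. In both groups library 2 was highest and library 1 lowest, and each mutant lay above the wild type of the same number. The means were 68.2 ± 13.6 CPM in mutant and 59.3 ± 11.8 CPM in wild-type libraries (SD, n = 3 each). The log2 fold change was 0.20 (95% interval -0.24 to 0.64, edgeR adjusted p = 0.817), and 0.32 without mutant 1. With the library number as a block the value was again 0.20, with a narrower interval of 0.00 to 0.40, an unadjusted edgeR p of 0.0463 and an adjusted p of 0.717.

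Ptrf, now named Cavin1, encodes the cavin that is required for caveolae to form. It stood at 88.0, 89.5 and 85.3 CPM in mutants 1, 2 and 3, against 103.1, 93.6 and 85.5 CPM in wild types 1, 2 and 3. Of the 3 members it varied least among libraries, and the groups overlapped. The means were 87.6 ± 2.15 CPM in mutant and 94.1 ± 8.85 CPM in wild-type libraries (SD, n = 3 each), with a log2 fold change of -0.10 (95% interval -0.31 to 0.10, edgeR adjusted p = 0.803), and -0.11 without mutant 1. The interval excluded a rise of the size seen in Cav1. Over the 3 members, 1 had every mutant library above every wild-type library and 0 had the reverse, against 5.23% and 6.43% of tested genes.

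**Figure D1:**
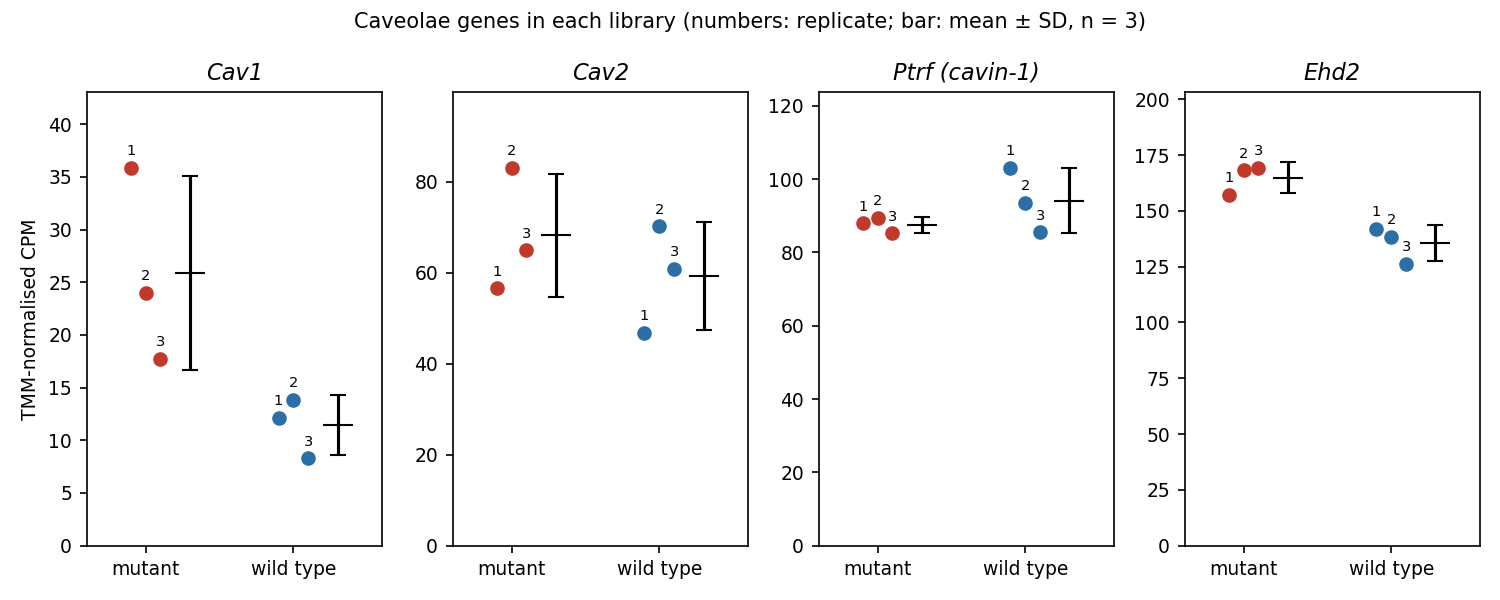
TMM-normalised CPM (vertical axes, starting at 0) of Cav1, Cav2, Ptrf and the neck gene Ehd2 in 3 mutant (red) and 3 wild-type (blue) libraries, each point a library with its number, and the black bar the mean ± SD. The mutant and wild-type points are apart for Cav1 (17.7 to 35.9 against 8.31 to 13.9 CPM) and Ehd2, and overlap for Cav2 and Ptrf.

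The balance of the members within a library needs no scaling between libraries. Mutants 1, 2 and 3 had 0.63, 0.29 and 0.27 Cav1 counts per Cav2 count, against 0.26, 0.20 and 0.14 in wild types 1, 2 and 3. Every mutant ratio exceeded every wild-type ratio, although mutant 3 and wild type 1 lay close together. On the log2 scale the difference was 0.94, with means of -1.44 ± 0.68 in mutant and -2.38 ± 0.47 in wild-type libraries (SD, n = 3 each). A two-sided exact permutation test gave p = 0.1, the smallest that 3 against 3 allows. Without mutant 1 the difference was 0.55. Cav1 counts per Ptrf count were 0.41, 0.27 and 0.21 in mutants 1, 2 and 3, against 0.12, 0.15 and 0.097 in wild types 1, 2 and 3, also without overlap.

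Levels of different genes were set side by side per kilobase of merged exon. Ptrf reached 25.1 ± 0.62 CPM per kilobase in mutant and 26.95 ± 2.53 CPM per kilobase in wild-type libraries (SD, n = 3 each). Cav2 followed at 20.4 ± 4.07 and 17.8 ± 3.54 CPM per kilobase. The means of Ptrf and Cav2 differed by more than the SD of either gene in both groups. Cav1 was lower, at 8.37 ± 2.98 CPM per kilobase in mutant and 3.70 ± 0.92 CPM per kilobase in wild-type libraries, and its spread did not reach that of Cav2 in either group. The order of the 3 members was thus the same in both groups, with Cav1 the least abundant.

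Cav2 and Cav1 are adjacent protein-coding genes on mouse chromosome 6, and Ptrf lies on chromosome 11. The promoter windows of Cav1 and Cav2, each from 250 bases before to 50 after the annotated start, are shown because these neighbouring genes differed in pattern. They are RefSeq sequences on GRCm38.p6, where all 3 members were matched, printed 5′ to 3′ on the gene's strand. The Cav1 window is chr6:17306085-17306384 (+) and the Cav2 window chr6:17280935-17281234 (+). Capitals mark the core letters of the Notch effector RBPJ (TGGGAA) and of the GC box bound by SP factors (GGGCGG), searched on both strands.
Cav1: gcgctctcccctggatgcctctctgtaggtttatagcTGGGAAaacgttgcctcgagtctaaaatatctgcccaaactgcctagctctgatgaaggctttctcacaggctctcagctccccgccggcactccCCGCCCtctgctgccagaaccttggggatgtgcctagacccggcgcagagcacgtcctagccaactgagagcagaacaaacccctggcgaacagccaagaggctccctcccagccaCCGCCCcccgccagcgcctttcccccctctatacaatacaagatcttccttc
Cav2: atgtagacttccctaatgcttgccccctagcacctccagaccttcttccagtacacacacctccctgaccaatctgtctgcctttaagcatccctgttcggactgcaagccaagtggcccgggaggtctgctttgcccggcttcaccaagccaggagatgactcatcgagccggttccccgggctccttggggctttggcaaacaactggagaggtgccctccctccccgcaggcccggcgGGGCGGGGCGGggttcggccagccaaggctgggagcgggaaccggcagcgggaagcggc

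The RBPJ core letters occurred 1 time, in the Cav1 window at position -213 from the start site, and not in that of Cav2. Of 32851 promoter windows of the same length, 25.6% held these letters. GC box letters were present in both windows, on the minus strand in Cav1 and on the plus strand in Cav2, where a pair of them overlapped. They were present in 35.7% of all windows. The windows were 59.3% (Cav1) and 64.3% (Cav2) G and C, against a median of 52.7% over all windows. The letters TATAAA of the TATA box occurred on the minus strand of the Cav1 window at position -221 and in 13.6% of all windows. A window at a further annotated start of Cav1, not printed, held none of these letters. A match of letters is a description and not a binding site.

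The protein-coding genes on either side of the pair gave the local context. Tes, which encodes a focal adhesion protein, averaged 18.2 ± 3.88 CPM in mutant and 17.4 ± 1.55 CPM in wild-type libraries (SD, n = 3 each), with a log2 fold change of 0.07 (-0.33 to 0.46) that turned to -0.11 without mutant 1. Met, the receptor of hepatocyte growth factor, averaged 511.1 ± 88.9 CPM in mutant and 592.0 ± 25.1 CPM in wild-type libraries, for a log2 change of -0.21 (-0.54 to 0.11) that was -0.07 without mutant 1. Neither passed the test (edgeR adjusted p = 0.936 and 0.768), and neither showed the order of libraries seen in Cav1.

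Of 17 other genes of the caveolar coat, neck and membrane scission, 14 passed the filter on low counts. The muscle caveolin gene Cav3 had 0 counts in every library, the muscle cavin gene Murc had 2 to 13 counts, and Pacsin1 had 114 counts in mutant 1 and 0 to 6 elsewhere. Of the 14 tested genes, 0 passed in edgeR in either direction. At an unadjusted p under 0.05 there were 3 on the higher side (Ehd2, Prkcdbp and Sdpr) and 1 on the lower side (Pacsin3), against 3.69% and 2.89% of all tested genes. Their median log2 fold change was 0.08, with 12 positive, where the median over all tested genes was 0.00 and 51.1% were positive. Without mutant 1 the median was 0.10, again with 12 positive. All mutant libraries lay above all wild-type libraries for 3 of the 14 and below them for 1, against 5.23% and 6.43% of tested genes.

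Ehd2, an ATPase that holds caveolae at the plasma membrane, had the smallest p of this list. It stood at 157.2, 168.3 and 169.4 CPM in mutants 1, 2 and 3, against 141.9, 138.4 and 126.4 CPM in wild types 1, 2 and 3. The groups did not overlap, and the libraries within each group lay close together. The means were 164.9 ± 6.77 CPM in mutant and 135.6 ± 8.18 CPM in wild-type libraries (SD, n = 3 each), a 1.22-fold ratio. The log2 fold change was 0.28 ± 0.08 (SE), with an interval of 0.10 to 0.46, an unadjusted p of 0.00776 and an edgeR adjusted p of 0.737. Unlike Cav1, Ehd2 was lowest among the mutants in mutant 1. Without mutant 1 the log2 fold change was 0.32 (0.11 to 0.53, edgeR adjusted p = 0.819).

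The other cavins were low. Prkcdbp, now named Cavin3 and known to bind protein kinase C delta, had 115, 69 and 74 counts in mutants 1, 2 and 3, against 36, 51 and 33 counts in wild types 1, 2 and 3. After scaling these were 3.51, 2.95 and 2.61 CPM against 1.65, 2.04 and 1.34 CPM, without overlap. Its log2 fold change was 0.85 (0.06 to 1.63, edgeR adjusted p = 0.737), and 0.73 without mutant 1. Sdpr, now named Cavin2 and abundant in endothelium and fat, stood at 22.2, 12.5 and 7.76 CPM in mutants 1, 2 and 3, against 9.69, 5.97 and 5.05 CPM in wild types 1, 2 and 3. Mutant 3 lay below wild type 1, so the groups overlapped. Its log2 fold change of 1.04 (0.06 to 2.01, edgeR adjusted p = 0.737) was 0.55 without mutant 1, with an interval of -0.18 to 1.28.

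None of the remaining tested partners passed. Pacsin2, which bends the membrane at caveolae, averaged 153.6 ± 7.36 CPM in mutant and 153.5 ± 2.58 CPM in wild-type libraries (SD, n = 3 each), with a log2 fold change of 0.00, and 0.04 without mutant 1. Pacsin3, a relative of Pacsin2, averaged 48.7 ± 1.14 CPM in mutant and 55.1 ± 2.07 CPM in wild-type libraries, with every mutant library below every wild-type library, as in 6.43% of tested genes (log2 fold change -0.18, and -0.17 without mutant 1, edgeR adjusted p = 0.737). Dnm2, the dynamin that cuts vesicles from the membrane, averaged 143.7 ± 3.05 CPM in mutant and 136.2 ± 6.43 CPM in wild-type libraries, for a log2 change of 0.08 (edgeR adjusted p = 0.811) and 0.06 without mutant 1. Its mutant libraries all lay above its wild-type libraries, as in 5.23% of tested genes, although mutant 3 (141.5 CPM) and wild type 1 (140.9 CPM) were close. Ehd1 and Ehd4, relatives of Ehd2 that act in recycling endosomes, had log2 fold changes of 0.07 and 0.08, and 0.04 and 0.09 without mutant 1. Ehd3, another relative, and the neuronal dynamin gene Dnm1 held 11 to 202 and 8 to 41 counts a library, with log2 fold changes of 0.64 and 0.63 that were -0.20 and 0.18 without mutant 1. Flna, the actin crosslinker filamin A that anchors caveolin-1 to actin, had 398.5 CPM in mutant 1 and 152.5 to 208.0 CPM elsewhere, and its log2 fold change of 0.59 was 0.14 without mutant 1.

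The flotillins, which build membrane domains that are not caveolae, gave a comparison with another membrane scaffold. Flot1 averaged 56.0 ± 6.10 CPM in mutant and 53.6 ± 6.08 CPM in wild-type libraries (SD, n = 3 each), with a log2 fold change of 0.06 that turned to -0.02 without mutant 1. Flot2 averaged 79.0 ± 2.83 CPM in mutant and 76.0 ± 1.19 CPM in wild-type libraries, for a log2 change of 0.06 (-0.10 to 0.21) and 0.03 without mutant 1. For Flot2 every mutant library lay above every wild-type library, as in 5.23% of tested genes, and for Flot1 the groups overlapped. Neither passed in edgeR (adjusted p = 0.912 and 0.854).

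**Figure D2:**
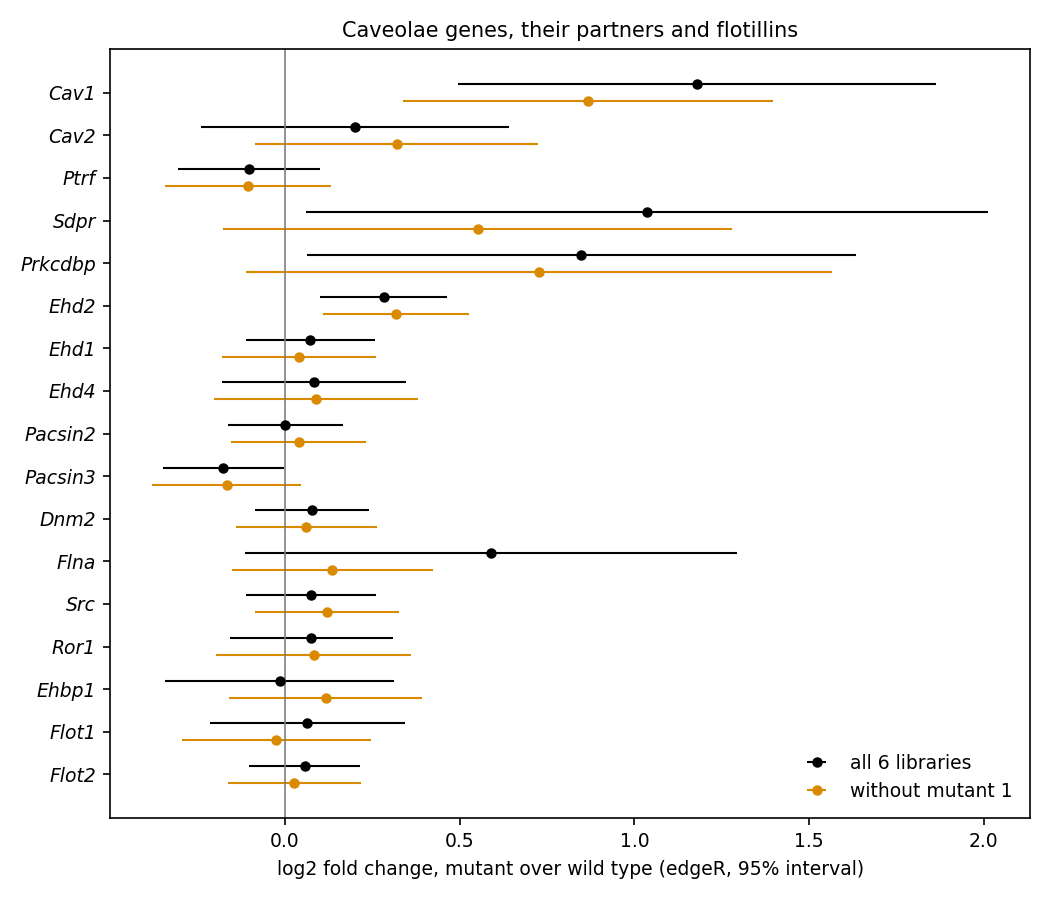
Log2 fold change of mutant over wild type (horizontal axis, edgeR, 95% interval as bars) for the members, 12 of the 14 tested partners and the flotillins, with all 6 libraries in black and without mutant 1 in orange. Cav1 and Ehd2 have intervals above 0 in both fits (0.34 to 1.40 and 0.11 to 0.53 without mutant 1), while those of Sdpr and Prkcdbp reach below 0 without mutant 1. Ehd3 and Dnm1, with wide intervals at low levels, are not drawn.

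Endothelial transcripts were read from Pecam1, Cdh5 and Vwf, which encode an adhesion molecule of endothelium and platelets, the endothelial cadherin and von Willebrand factor. In bulk samples, fewer cells of a type and less RNA per cell cannot be told apart. Pecam1 stood at 21.3, 2.05 and 1.34 CPM in mutants 1, 2 and 3, against 1.46, 1.08 and 1.18 CPM in wild types 1, 2 and 3. Cdh5 stood at 12.0, 0.51 and 1.59 CPM in mutants 1, 2 and 3, against 0.50, 0.16 and 0.49 CPM in wild types 1, 2 and 3. Vwf stood at 42.5, 2.01 and 2.01 CPM in mutants 1, 2 and 3, against 0.87, 0.32 and 0.77 CPM in wild types 1, 2 and 3. All 3 genes were far higher in mutant 1 than in each other library. For Vwf mutants 2 and 3 also lay above every wild-type library, as they did for Cdh5, where mutant 2 had 12 counts and wild type 1 had 11, while for Pecam1 mutant 3 lay below wild type 1.

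None of the 3 endothelial genes passed in edgeR (adjusted p = 0.737 for each). Their log2 fold changes were 2.73 for Pecam1, 3.60 for Cdh5 and 4.57 for Vwf with all libraries, and 0.45, 1.46 and 1.62 without mutant 1. The counts behind the wild-type values were 27 to 32 for Pecam1, 4 to 12 for Cdh5 and 8 to 19 for Vwf. Over a wider list of 22 endothelial genes, 11 were at 0 counts in mutant 2 and 0 in mutants 1 and 3, against 3 in wild type 1 and 4 each in wild types 2 and 3. Among those at 0 in mutant 2 were Flt1, Erg, Emcn, Cldn5 and Icam2. That list summed to 303.2, 202.6 and 222.9 CPM in mutants 1, 2 and 3, against 210.6, 195.7 and 206.3 CPM in wild types 1, 2 and 3. Most of it was Esam, an adhesion gene that averaged 186.5 ± 12.6 CPM in mutant and 184.5 ± 5.27 CPM in wild-type libraries (SD, n = 3 each), and the next was Egfl7, an endothelial matrix factor, at 11.1 ± 3.66 and 10.4 ± 0.65 CPM.

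Set against the endothelial genes, Cav1 gave 0.47, 5.24 and 3.59 counts per count of Pecam1, Cdh5 and Vwf together in mutants 1, 2 and 3. Wild types 1, 2 and 3 gave 4.29, 8.87 and 3.40. Mutant 1 stood far below the rest, while mutants 2 and 3 lay within the range of the wild types. On the log2 scale the difference was -1.27, with means of 1.05 ± 1.86 in mutant and 2.32 ± 0.71 in wild-type libraries (SD, n = 3 each; two-sided exact permutation p = 0.5). Without mutant 1 it was -0.21 (exact permutation p = 0.9). The mean log2 ratio of Cav1 to the endothelial counts was thus lower in the mutant libraries mainly through mutant 1, with overlapping groups.

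In amounts the endothelial sum and Cav1 differed. The 3 endothelial genes together stood at 75.8, 4.58 and 4.94 CPM in mutants 1, 2 and 3, against 2.83, 1.56 and 2.44 CPM in wild types 1, 2 and 3. Mutant 1 exceeded the mean of mutants 2 and 3 by 71.1 CPM in this sum and by 15.0 CPM in Cav1. It exceeded that mean 12.6-fold for Pecam1, 11.4-fold for Cdh5 and 21.2-fold for Vwf, against 1.72-fold for Cav1, 2.19-fold for Sdpr and 1.26-fold for Prkcdbp. Cav2, Ptrf and Ehd2 had no such excess, at 0.76, 1.01 and 0.93 times that mean. The part of endothelial RNA in the Cav1 difference was not tested.

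**Figure D3:**
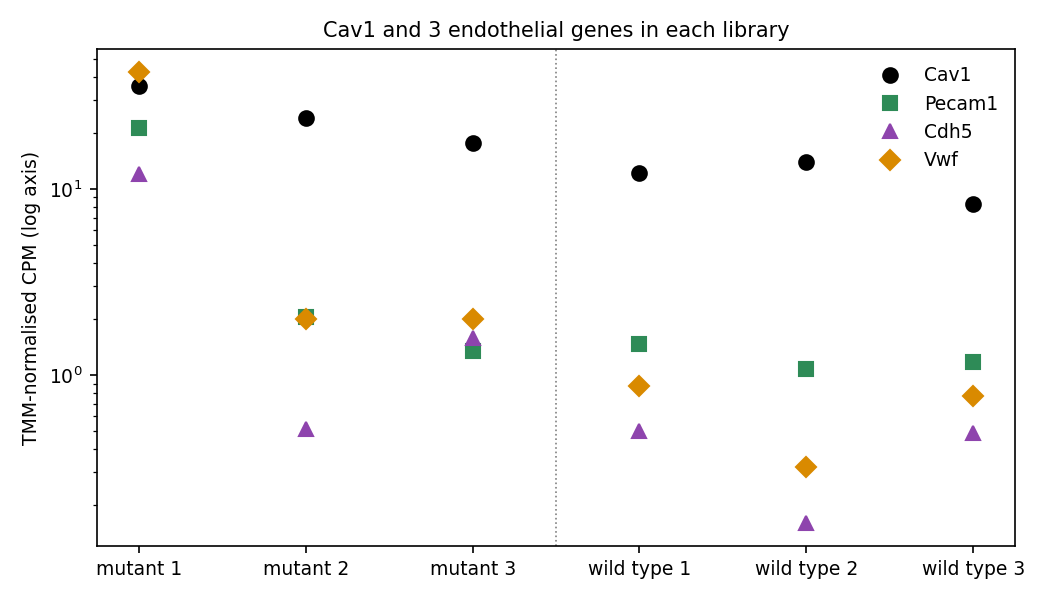
TMM-normalised CPM on a log axis for Cav1 (black) and the endothelial genes Pecam1, Cdh5 and Vwf (green, purple and orange) in each library, mutants at the left. In mutant 1 Vwf (42.5 CPM) lies above Cav1 (35.9 CPM), and in the other 5 libraries all 3 endothelial genes lie at or below 2.05 CPM, under Cav1 at 8.31 to 24.0 CPM.

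Marker sums of the other cell types rich in caveolae were highest in mutant 1 as well. The sum for mural cell genes, of smooth muscle and pericytes, was 25.9 CPM in mutant 1, against 1.97 to 3.21 CPM in the other 5 libraries. The mesothelial sum was 54.1 CPM there, against 1.11 to 6.17 CPM, and the fat cell sum 4.88 CPM, against 0.21 to 1.37 CPM. Of 5 fat cell genes, however, Adipoq, Retn and Lep were at 0 counts in every library, mutant 1 included. The fat cell sum thus rested on Plin1 and Cidec in mutant 1 and on Cidec alone elsewhere. Of 11 fibroblast genes 0, 4 and 3 were at 0 counts in mutants 1, 2 and 3, against 4, 2 and 3 in wild types 1, 2 and 3, among them Lum and Tcf21 in each library but mutant 1. Of 8 mural genes 0, 3 and 2 were at 0 counts in mutants 1, 2 and 3, against 4, 5 and 4 in wild types 1, 2 and 3. Between mutants 2 and 3 and the wild types, the fibroblast sums were 4.24 and 4.55 CPM against 4.13 to 7.90 CPM, and the mural sums 3.17 and 3.21 CPM against 1.97 to 2.76 CPM. The part of these cells in the Cav1 difference was not tested.

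Type I cell genes were read from a list of 24 markers other than the caveolins, all of which passed the filter. In edgeR 0 passed in either direction, and 2 had an unadjusted p under 0.05, both on the higher side. The list's median log2 fold change was 0.19 with 21 of 24 positive, where the median over all tested genes was 0.00 and 51.1% were positive. Without mutant 1 the median was 0.20, again with 21 positive. Every mutant library lay above every wild-type library for Akap5 and Sema3a, 2 of 24 genes, against 5.23% of tested genes. Mutants 2 and 3 both lay above every wild-type library for 7 of 24 genes, Ager among them, against 11.1% of tested genes. They lay below every wild-type library for 0 of 24. Added up, the list reached 5394, 6427 and 6538 CPM in mutants 1, 2 and 3, against 5712, 5467 and 6554 CPM in wild types 1, 2 and 3, so the groups overlapped. Of a fixed list of 13 type II genes, 0 passed in edgeR and 0 had a positive log2 fold change, with a median of -0.18. Without mutant 1 that median was -0.11, with 1 of 13 positive.

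The established type I genes Ager, Hopx, Pdpn and Aqp5 did not share the order of Cav1 over the 6 libraries. Ager, the receptor for glycation end products, averaged 2036 ± 209 CPM in mutant and 1965 ± 129 CPM in wild-type libraries (SD, n = 3 each), with a log2 fold change of 0.05 (-0.22 to 0.33), and 0.13 without mutant 1. Hopx, a homeodomain cofactor, averaged 31.3 ± 6.07 against 27.2 ± 4.69 CPM (0.20, -0.21 to 0.62, and 0.05 without mutant 1). The membrane glycoprotein gene Pdpn averaged 16.3 ± 4.86 against 13.2 ± 1.06 CPM (0.30, -0.23 to 0.84, and 0.24 without mutant 1). The water channel gene Aqp5 averaged 484.1 ± 97.9 CPM in mutant and 553.5 ± 65.0 CPM in wild-type libraries, on the lower side (-0.19, -0.57 to 0.19, and -0.09 without mutant 1). In mutant 1 Cav1 was highest of all libraries while Aqp5 was lowest at 410.4 CPM and Ager stood at 1816 CPM, level with wild type 2 at 1817 CPM. Hopx, like Cav1, was highest in mutant 1, at 37.7 CPM. Pdpn stood at 17.8 CPM there, below mutant 3 at 20.2 CPM and above every wild type.

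Akap5, an anchoring protein for protein kinase A, was the type I marker nearest to Cav1 in its test. It stood at 39.5, 34.2 and 33.5 CPM in mutants 1, 2 and 3, against 20.2, 26.7 and 16.2 CPM in wild types 1, 2 and 3. The groups did not overlap, and the order of the 6 libraries was the same as for Cav1. Its log2 fold change was 0.77 (0.34 to 1.19, edgeR adjusted p = 0.737), and 0.69 without mutant 1. Agrn, a basement membrane proteoglycan, averaged 258.2 ± 32.6 CPM in mutant and 206.0 ± 28.2 CPM in wild-type libraries (SD, n = 3 each), with a log2 fold change of 0.33 (0.01 to 0.65) that was 0.28 without mutant 1.

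**Figure D4:**
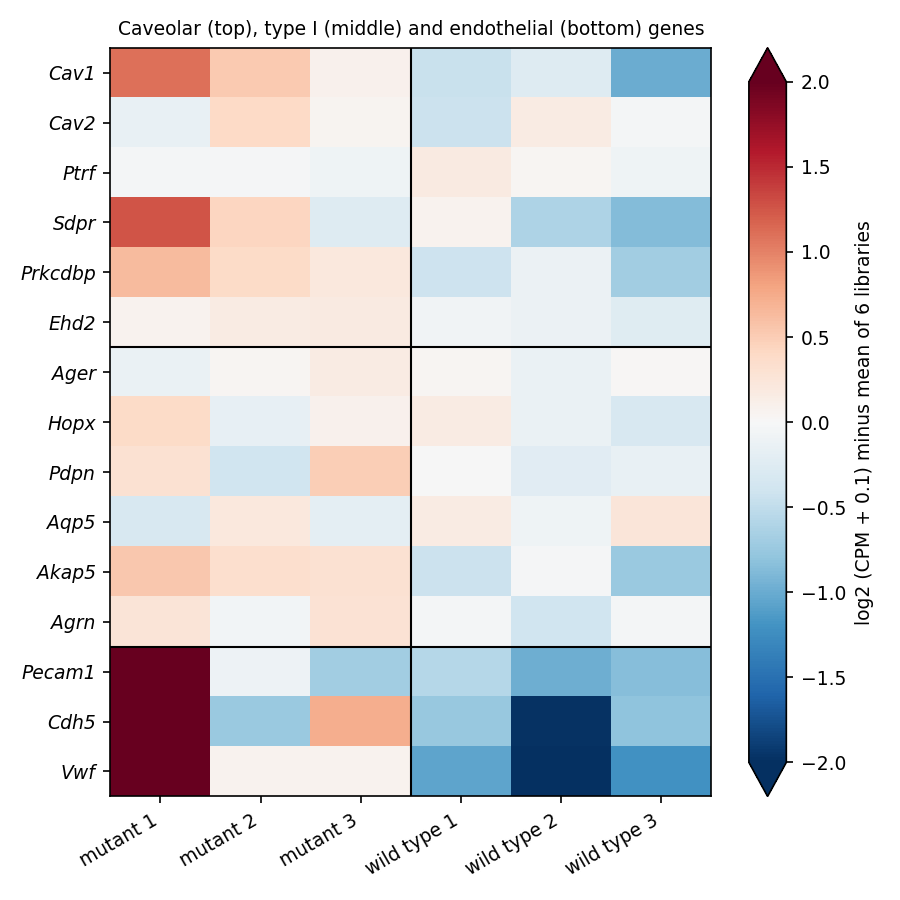
Log2 (CPM + 0.1) of each gene minus its mean over the 6 libraries (colour, cut at -2 and 2), with caveolar genes above, type I genes in the middle and endothelial genes below, and mutants in the left columns. Cav1, Prkcdbp and Akap5 are redder in the 3 mutants than in the 3 wild types, Cav2 and Ptrf are mixed, and the endothelial genes are far above the colour limit in mutant 1.

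The genes most like each member were found among 12236 others with a mean of at least 1 CPM, by the root-mean-square difference of centred log2 CPM over the 6 libraries. For Cav1, whose own range was 2.1 on this scale, they were Pxdn (0.138), Ppap2a (0.194), Lrp8 (0.225), Prkcdbp (0.249) and Dennd5b (0.252). The cavin gene Prkcdbp was thus the fourth nearest of 12236, and it was again the fourth nearest over the 5 libraries without mutant 1 (0.144). In those 5 libraries the others were the type I gene Sema3a (0.0764), Ttpa (0.12), Gm14403 (0.133) and B3gat2 (0.146). Pxdn, a peroxidase of the basement membrane, stood at 8.14, 5.35 and 3.46 CPM in mutants 1, 2 and 3, against 3.15, 3.04 and 1.59 CPM in wild types 1, 2 and 3.

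The genes nearest to Cav2 were 3230401D17Rik (0.0494), Fam135a (0.0602), Rasa1 (0.0612), Zfx (0.0698) and Arid4b (0.0707). They shared its order by library number, and in each of them the groups overlapped. For 3230401D17Rik, Rasa1 and Zfx each mutant also lay above the wild type of the same number, as for Cav2. For Fam135a and Arid4b mutant 3 lay below wild type 3. Rasa1, a GTPase-activating protein for Ras, stood at 53.0, 73.3 and 58.3 CPM in mutants 1, 2 and 3, against 41.7, 57.2 and 54.9 CPM in wild types 1, 2 and 3. Those nearest to Ptrf were Ppih (0.0241), Pomgnt1 (0.0251), 1810026J23Rik (0.0256), Tmem66 (0.027) and Abhd14b (0.0274), each nearly flat over the libraries. The 3 members had no gene in common among their nearest.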

How the data were processed

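RNA-seq was compared between 3 mutant and 3 wild-type libraries of sorted cells, grouped by sample title. Per the labels' protocols, TruSeq mRNA libraries were prepared from column-purified RNA and sequenced together. The protocols mention both an injury and a culture of the cells, and do not settle whether the RNA came from cultured cells. The deposited values were raw whole-number counts per gene symbol. The submitters' processing notes name the build mm9 and the tools CASAVA and DESeq2. Unknown are the aligner, counter, annotation and strand handling, not given in the sources used here. Hence overlapping genes could share reads.

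Counts were filtered with filterByExpr, scaled by TMM and tested with edgeR 4.0.16 (R 4.3.3; quasi-likelihood, two-sided, mutant over wild type), with p-values adjusted by Benjamini-Hochberg over 12899 genes at 0.05. DESeq2 1.42.0, limma-voom 3.58.1, other scalings and filters, a replicate block and left-out libraries were alternatives. The procedure was also run on simulated counts. These held no outlying library and no pairing of libraries, so they cannot show how the tests behave with either. Per-length levels used merged exons of GENCODE vM21. The members and lists were chosen with earlier results of these data known. Of 129 list genes, Chil1 was matched by an older symbol and Siglecf was not matched. Named genes were the members, the endothelial genes given with the rule, fixed partners and markers, the list members with the smallest p and the nearest genes in pattern. Tes and Met were named for their position, and Ehd1, Ehd3, Ehd4, Dnm1, Cav3, Murc, Pacsin1 and the markers at 0 counts after their values were seen.

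Replicate pairs of a group differed by 19.3 to 80.6 chi-square units per degree of freedom, beyond sampling noise. After the group means were subtracted, same-numbered libraries correlated at 0.31, 0.21 and 0.17, and differently numbered ones at -0.25 to 0.07. Centring within so few libraries ties these values to each other, so they cannot establish a pairing, and the labels state none. The main tests left this possible pairing out, and the replicate block assumed it. Intervals and the floor of 3 counts cover counting or model error only.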

Additional observations from a re-analysis of the deposited data

How the results depend on the processing

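Cav1 kept its direction in 17 alternatives, with log2 fold changes of 0.78 to 1.39 and adjusted p of 0.049 to 0.998, and passed in 1 of them, DESeq2 with all libraries (1.18). Leaving out single libraries gave 0.87 to 1.39. Cav2 ranged from 0.03 to 0.47 and Ptrf from -0.17 to -0.03, neither passing. With the replicate block, which pairs same-numbered libraries, the values were 1.15 for Cav1, 0.20 for Cav2 and -0.10 for Ptrf, and no call changed. For Cav1 the blocked interval was 0.73 to 1.57, with an unadjusted edgeR p of 0.000609 and an adjusted p of 0.563. The count of genes passing was 0 in edgeR, 46 in DESeq2 and 22 in DESeq2 without mutant 1 (chosen after seeing the data), and 0 to 1 when single libraries were left out. The 1 gene was Gpr133, without wild type 3. The cause of these differences was not tested. The mutant minus wild-type difference in the log2 ratio of Cav1 to Cav2 ranged from 0.55 to 1.16 when single libraries were left out. The same difference for Cav1 to the endothelial genes ranged from -1.94 to -0.21. With the block these differences were 0.94 and -1.27.

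Signs turned for 6 genes near 0. Pacsin2 was -0.01 with no filter, 0 with the block and -0.03 to 0.04 without single libraries. Flot1 was -0.03 to 0.14 without single libraries, 0 without mutant 1 and wild type 2 together, and -0.02 without mutant 1 in both DESeq2 and limma-voom, alternatives also chosen after seeing the data. Without single libraries Ager was -0.02 to 0.13, Esam -0.03 to 0.07, Egfl7 -0.07 to 0.35 and Tes -0.11 to 0.19. Without mutant 1 and wild type 2 together Egfl7 was -0.03 and Tes -0.04. Without mutant 1, DESeq2 and limma-voom gave -0.07 and -0.11 for Egfl7 and -0.11 and -0.15 for Tes. limma-voom with all libraries gave -0.03 for Tes. Ehd3, at 0.64 with all libraries, was -0.20 to 1.19 without single libraries, -0.28 without mutant 1 and wild type 2 together, and -0.20 and -0.51 without mutant 1 in DESeq2 and limma-voom. The Cdh5 and Vwf values in wild-type libraries rest on 4 to 19 counts, which limits their folds.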
